A study of Callithrix jacchus with 4 samples.

Results

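UBA7, HERC5 and HERC6 are 3 genes of the machinery that attaches the ubiquitin-like protein ISG15 to other proteins. They were chosen by name, with their levels in these nuclei already known, and are 3 of the 16383 genes listed in both deposited UMI tables. ISG15 is conjugated in a relay like that of ubiquitin. UBA7 is the E1 enzyme that activates ISG15, UBE2L6 is the E2 that carries it, and a ligase (E3) joins it to a target. HERC5 is the main ISG15 ligase in human cells, and HERC6, its close relative, is the main one in mice. All of these genes are known to be induced by type I interferon, so they are low in resting brain tissue and rise in infection and inflammation.

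Nuclei came from the primary visual cortex (V1) of adult marmosets. In the injured cohort, 3 animals were given unilateral endothelin-1 (ET-1), a vasoconstrictor that produces a focal ischemic stroke, and the grey matter of the operculum was taken 7 days later, so each injured library is 1 animal. The control cohort is 1 library pooled from the V1 of 3 adult marmosets. The labels and the study's methods describe them as animals without a lesion, although legends in the study speak of uninjured hemispheres or of contralateral tissue. The labels name no transgene and no other agent for either cohort. UMIs of each gene were summed per library and annotated cell type, for astrocytes (Astro), endothelial cells (Endo), excitatory neurons (ExN), inhibitory neurons (InN), microglia, oligodendrocyte precursors (OPC) and oligodendrocytes (Oligo). Levels are given as CPM, the UMIs of a gene per 1000000 UMIs of that sum, and as the share of nuclei with at least 1 UMI.

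The injured libraries held 7500, 12527 and 9510 nuclei (injured 1, 2 and 3) and the control library 8610, with a median of 3531 to 4504.5 UMIs per injured nucleus and 2117 per control nucleus. The study assigned cell types with the markers checked here, so their pattern is no independent check of the labels. Of these markers, 32 of 33 in the injured cohort and 31 of 32 in the control library were highest in their own type, the exceptions being GPR34 (highest in injured OPC) and FLT1 (highest in control microglia). The control library held few microglia (129 nuclei), OPC (171) and endothelial nuclei (181), so a gene with a handful of UMIs there has a wide counting interval. Between 15 and 27 nuclear barcodes were shared by each pair of libraries. The cohorts also differed in nuclei isolation, sequencing facility, sequencer and doublet removal, so that injury and preparation cannot be told apart in any injured against control value below.

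The injured cohort held 127416907 UMIs over all genes and the control library 22832703, so raw counts of a gene do not compare between them. The activating enzyme UBA7 had 3855 UMIs in the injured cohort and 10 in the control library. In astrocytes it stood at 36.9, 60.5 and 32.6 CPM in injured 1, 2 and 3, and no UMI was found in 594 control astrocytes. OPC had 36.3, 73.7 and 26.7 CPM, and inhibitory neurons 27.2, 45.2 and 14.6 CPM, again with no control UMI in either type. Endothelial nuclei gave 30.8, 56.0 and 27.4 CPM, against no UMI in control. In these 4 types every injured library was above a control value of 0, and the mean injured level was at least 29.8-fold higher in inhibitory neurons, 12.5-fold in astrocytes, 2.84-fold in OPC and 2.59-fold in endothelial nuclei, each a bound set against 3 UMIs in the control sum.

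UBA7 was detected in the control library in the other three types. Excitatory neurons had 17.9, 23.0 and 5.71 CPM in injured 1, 2 and 3 and 0.234 CPM (4 UMIs) in control, a ratio of 66.3 with a 95% counting interval of 25.9 to 243. Oligodendrocytes had 40.8, 47.5 and 23.2 CPM against 2.35 CPM (3 UMIs), a ratio of 15.8 (5.42 to 76.8). Microglia, in contrast, were not clear of control within counting error. Their levels were 46.8, 55.8 and 40.7 CPM in injured animals and 24.1 CPM in control, where 3 UMIs in 129 nuclei give a ratio of 1.98 with an interval of 0.678 to 9.61 that includes no difference. All intervals of this kind cover the counting error of the control sum only.

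HERC5, the ligase, had 9176 UMIs in the injured cohort and 138 in control. Its highest mean injured levels were in OPC (72.0, 234 and 46.6 CPM in injured 1, 2 and 3), microglia (81.9, 212 and 51.6 CPM) and astrocytes (69.1, 185 and 43.6 CPM), although in injured 1 and 3 inhibitory neurons were above astrocytes. The control values were 58.8 CPM (11 UMIs) in OPC, 8.03 CPM (1 UMI) in microglia and 20.8 CPM (18 UMIs) in astrocytes. Every injured library was above control in microglia and astrocytes, whereas in OPC injured 3 was below it. Inhibitory neurons had 74.8, 138 and 45.1 CPM against 4.54 CPM, a ratio of 18.9 (11.3 to 34.6). Excitatory neurons had 44.4, 72.0 and 16.5 CPM against 3.92 CPM, a ratio of 11.3 (8.89 to 14.6). Both neuron classes were therefore clear of the control value in all 3 animals. Endothelial nuclei had 55.9, 113 and 31.0 CPM against 14.7 CPM (3 UMIs), and oligodendrocytes 37.3, 69.9 and 14.9 CPM against 18.8 CPM (24 UMIs), so that injured 3 fell below control in oligodendrocytes as it did in OPC. The ratios in OPC and oligodendrocytes, 1.999 (1.12 to 4.004) and 2.17 (1.46 to 3.38), rested on injured 2, without which they were 1.01 and 1.39. Without it the ratio also fell from 4.77 to 2.71 in astrocytes, from 4.54 to 2.96 in endothelial nuclei and from 14.3 to 8.31 in microglia.

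HERC6 was the most abundant of the members by UMI count, with 59966 UMIs in the injured cohort and 531 in control, although UMI counts are not corrected for gene length and do not rank genes. OPC had 775, 1090 and 659 CPM in injured 1, 2 and 3 against 90.9 CPM, and microglia 744, 1134 and 594 CPM against 32.1 CPM (4 UMIs), a ratio of 25.6 (10.02 to 94.1). A HERC6 UMI was found in 82.6% ± 4.17 of injured OPC (SD, n = 3) and 9.36% of control OPC (95% exact interval 5.44 to 14.7). Astrocytes had 618, 525 and 524 CPM against 92.5 CPM, a ratio of 6.004 (4.82 to 7.57), with little difference between the animals. Endothelial nuclei had 389, 773 and 276 CPM against 68.6 CPM. Inhibitory neurons had 299, 648 and 227 CPM against 26.3 CPM. Excitatory neurons had the lowest level in both cohorts, with 281, 412 and 86.6 CPM against 7.31 CPM, a ratio of 35.5 (29.8 to 42.7). Oligodendrocytes had a ratio of 2.63 (2.30 to 3.03), from 439.5, 577 and 282 CPM against 164 CPM, and its interval lay below those of astrocytes and of excitatory neurons.

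The control library alone had a cell type pattern of its own for HERC6. Oligodendrocytes held 210 of its 531 control UMIs (39.5%) but only 5.59% of all control UMIs, and 15.7% of control oligodendrocytes had a HERC6 UMI (13.6 to 17.9). Control excitatory neurons, with 74.8% of all UMIs, held 125 HERC6 UMIs, found in 2.17% of nuclei (1.79 to 2.59). In the injured animals the order was different. HERC6 ran from OPC (841 ± 223 CPM, SD, n = 3), microglia (824 ± 279), astrocytes (555 ± 54.0), endothelial nuclei (479 ± 260), oligodendrocytes (433 ± 147) and inhibitory neurons (391 ± 225) down to excitatory neurons (260 ± 164). No neighbours in this order differed by more than the larger of their SDs, and this was also the case for UBA7 and HERC5. These SDs include differences between animals that the types share. Within each of the 3 animals, HERC6 was higher in microglia than astrocytes and in inhibitory than excitatory neurons. HERC5 fell in each from microglia to astrocytes, and from inhibitory neurons to endothelial nuclei, excitatory neurons and oligodendrocytes. UBA7 fell in each from astrocytes to endothelial nuclei, and from oligodendrocytes to inhibitory and excitatory neurons. The other neighbouring steps held in 1 or 2 animals. Excitatory neurons were the lowest type for UBA7 and HERC6 in each of the 3 animals, and oligodendrocytes the lowest for HERC5 in each.

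**Figure D1:**
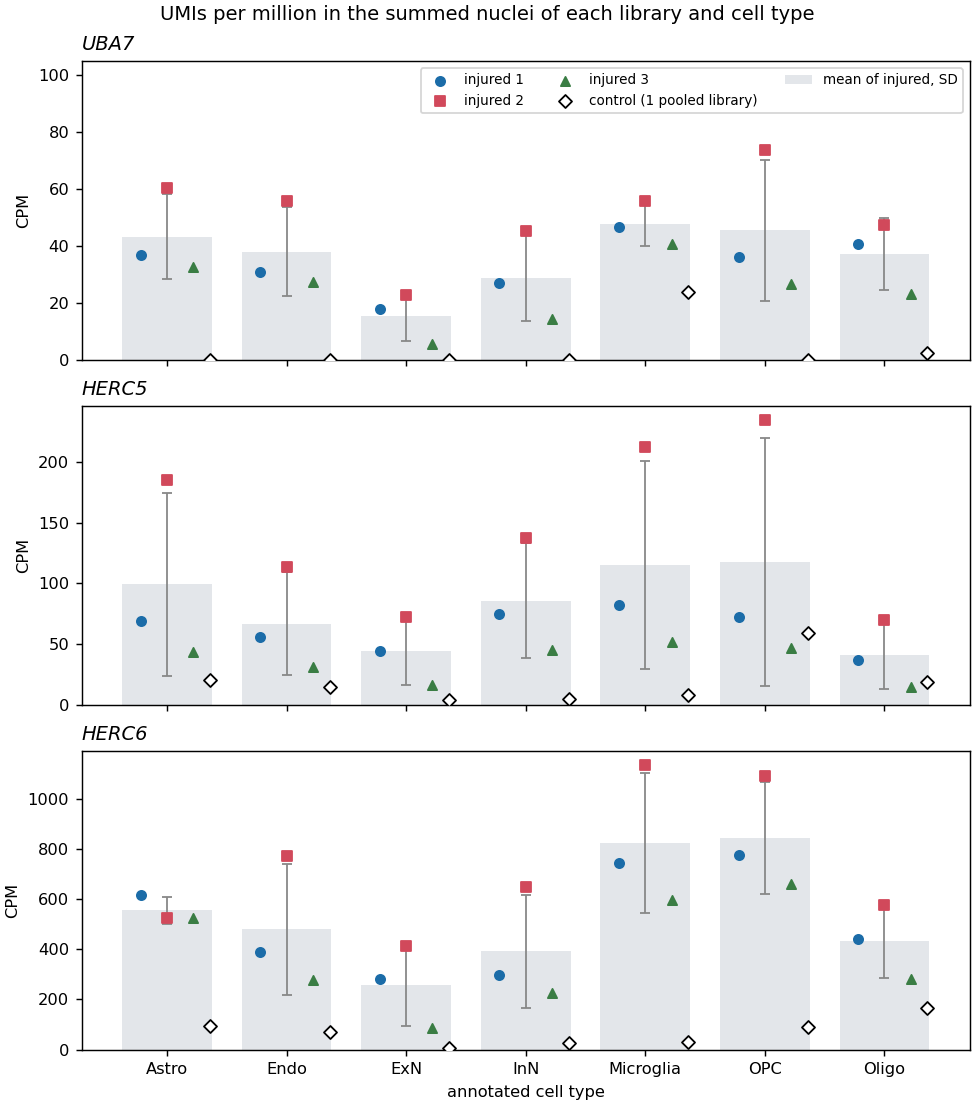
CPM (UMIs per 1000000) of UBA7, HERC5 and HERC6 in the summed nuclei of each annotated cell type, on linear axes. Coloured points are the 3 injured libraries, grey bars and whiskers their mean and SD, and open diamonds the 1 pooled control library. All 3 injured points lie above the diamond in 19 of 21 gene by cell type pairs, the exceptions being HERC5 in OPC and in oligodendrocytes.

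Across the members, every injured library was above control in 19 of 21 gene by cell type pairs. This direction was among the values known when the members were chosen, and it is a description with no test. Of all genes that passed the low-count filter, 31.1% (InN) to 49.8% (microglia) had every injured library above control, with 36.2% in Astro, 48.4% in Endo, 31.5% in ExN, 41.6% in OPC and 33.2% in Oligo. The median over the 21 pairs was a log2 fold of 3.21, with the 4 pairs that had no control UMI entered at their bound.

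Nuclei of the injured animals carried more UMIs than control nuclei of the same type, for example a median of 3026 against 793 in microglia and 5949 against 2678 in excitatory neurons. Shares of nuclei were therefore compared after every nucleus was thinned at random to 1000 UMIs, which left out 2185 injured and 1506 control nuclei with fewer. HERC6 was then found in 46.7% ± 9.91 of injured microglia and 1 of 37 control microglia (2.70%, 0.0684 to 14.2), where the unthinned shares were 70.9% ± 6.92 and 2.33%. In excitatory neurons the thinned share of HERC6 was 21.4%, 30.2% and 7.27% in injured 1, 2 and 3 and 0.796% in control (0.572 to 1.08), against 59.5%, 67.5% and 26.9% and 2.17% unthinned. HERC5 in inhibitory neurons was at 7.18%, 12.1% and 4.203% against 0.543% (0.177 to 1.26) after thinning, and at 26.8%, 39.6% and 18.1% against 1.29% before. In 19 of 21 pairs the thinned share was above control in every injured library, and the exceptions were again HERC5 in OPC and in oligodendrocytes. The matching share over all genes was not computed after thinning, and that given above (31.1% to 49.8%) is for CPM at full depth. UBA7 in thinned microglia, at 4.52%, 5.10% and 4.06%, lay inside the control interval of 0.0684 to 14.2%, so a difference was not detectable there at this depth. The same held for HERC5 in thinned OPC, microglia and endothelial nuclei. Injured 1 and 3 lay inside the control intervals there (2.06 to 14.0%, 0.0684 to 14.2% and 0.286 to 8.24%). The ratios of mean CPM after thinning, 1.58 (0.727 to 4.31), 4.73 (0.850 to 187) and 2.78 (0.770 to 23.0), had intervals that include no difference. At full depth, with more control nuclei, the ratios of 1.999 (1.12 to 4.004), 14.3 (2.57 to 566) and 4.54 (1.56 to 22.0) had intervals that do not. For HERC5 in thinned oligodendrocytes, injured 1 and 3 also lay inside the control interval (0.885 to 3.63%). The ratio of mean CPM there was 1.99, and its interval of 1.08 to 4.15 does not include no difference. In thinned endothelial nuclei and OPC, the UBA7 values of injured 1 and 3 likewise lay below the upper limits of the control intervals, 4.25% and 4.51%.

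**Figure D2:**
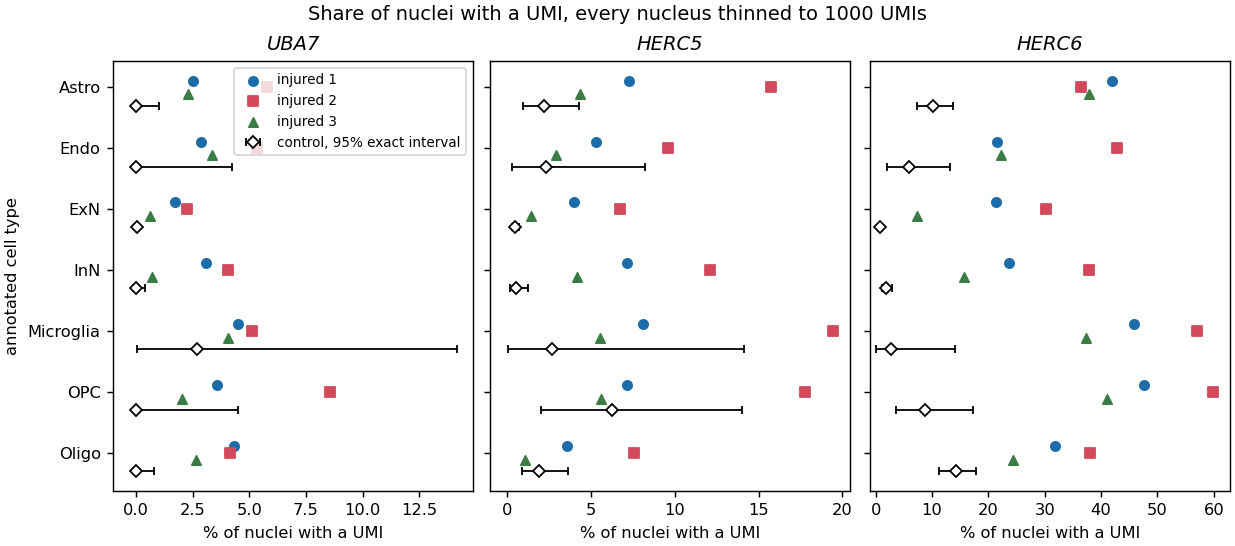
Share of nuclei (%, x axis) with a UMI of each gene after thinning every nucleus to 1000 UMIs, by annotated cell type (y axis). Coloured points are the 3 injured libraries and open diamonds the control library with its exact 95% interval. The x scales differ between genes, and in microglia the control interval for UBA7 and HERC5 spans all or most of the injured points because 37 control nuclei were left.

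No annotated type is known to lack these interferon-induced genes, so the members' own background from free RNA in the droplets could not be gauged and its part was not tested. For microglial RNA, the level of 5 summed microglial markers in other injured cell types was 5.07% to 30.4% of the microglial level in the same library. Markers of lymphocytes (PTPRC, CD3E, CD8A and NKG7) summed to 714 to 831 CPM in injured microglia and 434 CPM in control microglia, where CD3E and CD8A had no UMI and NKG7 was not listed, so that the control sum is PTPRC alone, a gene that microglia also express. Markers of macrophages (MRC1, LYVE1 and CD163) summed to 349 to 969 CPM against 611 CPM in the same nuclei. In control endothelial nuclei, markers of mural cells and fibroblasts (PDGFRB, COL1A1, LAMA2 and ACTA2) were at 4351 CPM, against 901 to 1297 CPM in the injured libraries. Their part in the microglial and endothelial values of the members was not tested.

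The 3 injured animals differed from each other in the same way in nearly every cell type. Injured 2 had the highest CPM in 20 of 21 gene by cell type pairs and injured 3 the lowest in 21 of 21, the one exception at the top being HERC6 in astrocytes, where injured 1 was highest. Among all pairs of a gene and a cell type that passed the low-count filter, injured 2 was highest for 32.5% and injured 3 lowest for 35.1%. The median gap was widest for HERC5. Its highest animal exceeded the lowest by a median of 4.24-fold over the 7 types (3.05 to 5.03), against 2.05-fold for UBA7 (1.37 to 4.02) and 2.05-fold for HERC6 (1.18 to 4.76). Over all genes the median per type was 1.24-fold to 1.38-fold. The modifier ISG15 and the E2 enzyme UBE2L6 had the same order in 7 of 7 types, with medians of 3.57-fold and 3.17-fold, while the other HERC genes had medians of 1.06-fold (HERC4) to 1.25-fold (HERC3). The order was not particular to the relay. It was also found in 7 of 7 types for MX1 (median 4.16-fold), DDX58 (3.86-fold), IFIT1 (3.50-fold), IFIT3 (2.76-fold), IRF1 (2.59-fold) and EIF2AK2 (2.21-fold).

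HERC5 and HERC6 did not follow the animals equally. In excitatory neurons there were 6.32, 5.72 and 5.24 HERC6 UMIs per HERC5 UMI in injured 1, 2 and 3, and in inhibitory neurons 3.99, 4.71 and 5.04. In neurons the ratio thus moved little between animals. In astrocytes it was 8.93, 2.84 and 12.01, in OPC 10.8, 4.65 and 14.2, in microglia 9.08, 5.35 and 11.5, and in oligodendrocytes 11.8, 8.25 and 19.0. In each of these 4 glial types injured 2 had the lowest ratio and injured 3 the highest. Endothelial nuclei, with 6.96, 6.81 and 8.91, had the same order of animals, so that this order was not particular to glia. The oligodendrocyte ratio of injured 3 rests on 25 HERC5 UMIs.

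**Figure D3:**
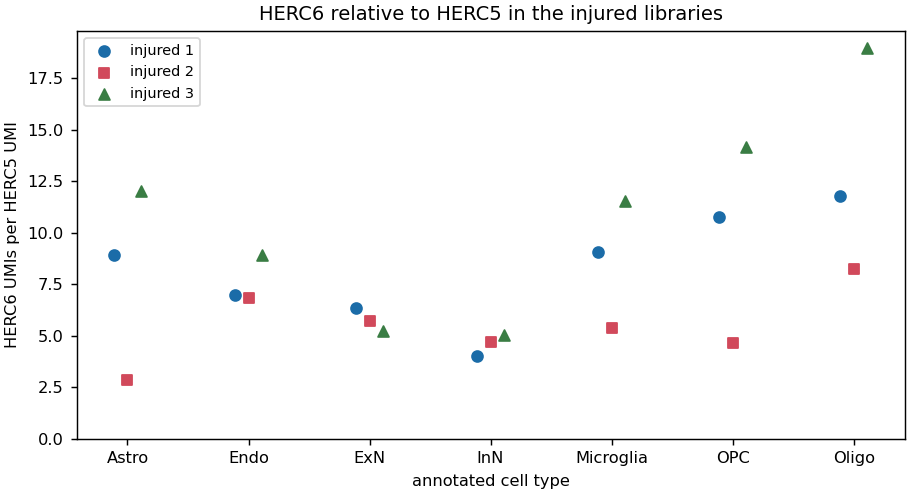
HERC6 UMIs per HERC5 UMI (y axis, linear) in the summed nuclei of each annotated cell type, 1 point per injured library. The 3 animals lie close together in excitatory (5.24 to 6.32) and inhibitory neurons (3.99 to 5.04) and spread from 2.84 to 12.01 in astrocytes.

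HERC5 and UBA7 were detected more often in nuclei that also held a HERC6 UMI. In injured nuclei with a HERC6 UMI, HERC5 was detected at a median of 2.22 times the share seen in nuclei of the same library and type without one, and above it in 21 of 21 sums. For UBA7 the median was 2.15, also in 21 of 21. Since nuclei with a HERC6 UMI are deeper on average, HERC4 was taken as a comparison gene, and its ratio was 1.21. HERC4 was detected far more often than the members. In nuclei of injured 1 without a HERC6 UMI its share was 53.2%, against 9.62% for HERC5 and 7.81% for UBA7. This limits how far its ratio can rise, so at full depth it does not gauge the effect of depth on HERC5 and UBA7. After thinning to 1000 UMIs the median ratio was 1.502 for HERC5 (above 1 in 19 of 21 sums), 1.30 for UBA7 (18 of 21) and 1.06 for HERC4 (14 of 21). Of the other relay genes, ISG15 had a thinned median of 1.30 (15 of 21) and UBE2L6 of 1.08 (13 of 21), close to HERC4. HERC5 had its highest thinned ratios in neurons, up to 2.92 in inhibitory neurons of injured 2, and a value of 0.821 in OPC of injured 3. The thinned share of UBA7 is small, so single sums ranged from 0 to 3.64. At full depth, 3.89%, 4.85% and 1.29% of all nuclei in injured 1, 2 and 3 held UMIs of all 3 members, and none of the 8610 control nuclei did, which allows a share of up to 0.0348% (3 nuclei). After thinning the shares were 0.114%, 0.267% and 0.0457%, and none of the 7104 control nuclei kept did (up to 0.0422%). These shares pool all cell types, whose mix differed between libraries. Excitatory neurons were 5402 of the 8610 control nuclei, against 1861 of 7500, 4562 of 12527 and 3013 of 9510 injured nuclei. In excitatory neurons alone the injured shares were 3.60%, 4.41% and 0.431% at full depth and 0%, 0.0662% and 0% after thinning.

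Over the 21 injured sums, the genes, other than the members themselves, whose log2(CPM + 10) was most like that of each member were sought among 13744 genes with at least 200 injured UMIs. For UBA7 these were ATL3 (Pearson r = 0.92), PARP12, MOV10, APOL6 and DDX60. For HERC6 they were MOV10 (0.90), DDX60, ENSCJAG00000003364, ALDH1L2 and ATL3, so that 3 of 5 were shared with UBA7. For HERC5 they were EIF2AK2 (0.92), which encodes the double-stranded RNA kinase PKR, CMPK2, ENSCJAG00000003619, DDX58, which encodes the RNA sensor RIG-I, and ZNFX1. Among the members, r was 0.89 between UBA7 and HERC6, 0.79 between UBA7 and HERC5 and 0.76 between HERC5 and HERC6, and after each library's own mean was removed it was 0.84, 0.60 and 0.64. The 21 sums come from 3 animals and share libraries and depth, and these values are a description with no p.

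HERC5 and HERC6 are adjacent on marmoset chromosome 3 in the RefSeq annotation (assembly calJac240_pri, used for gene order only), and UBA7 lies on chromosome 15. The genes beside them were fitted in the same comparison. PPM1K, next to HERC6, had fitted log2 changes of -0.20 to 1.58 over 7 types and PYURF, next to HERC5, of 0.79 to 2.85 in the 6 types where control had a UMI of it, with no call for either in any type. The lowest edgeR adjusted p was 0.170 for PPM1K and 0.0148 for PYURF. The next genes out, NAP1L5 (tested in 2 types) and ABCG2 (tested in 5), also had no call. Among the types where control had a UMI of it, ABCG2 reached a log2 change of 2.11 in ExN (SE 0.44, edgeR adjusted p = 0.0180). Of the 4 neighbours of UBA7, CDHR4, IP6K1 and TRAIP had no call. The remaining one, CAMKV, was called in excitatory neurons (log2 2.19, SE 0.16, adjusted p = 0.00102, edgeR quasi-likelihood test with Benjamini-Hochberg adjustment). In inhibitory neurons CAMKV passed the limits on p and fold (log2 2.08, SE 0.36, edgeR adjusted p = 0.00578), but its UMIs were in 9.97% of injured nuclei on average, under the share a call required.

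The rest of the pathway was followed in a list of 32 other genes, of which 29 were listed in both tables. The list was chosen with earlier results of these data known. Its counts of calls, set beside the shares over all genes, are therefore a description and no test of the pathway. USP18, the ISG15 protease, was not listed. IRF7 and IRF9 were listed for the injured cohort only and had no UMI there. Sums were compared with edgeR's quasi-likelihood test over all genes of each cell type, and a gene was called at an adjusted p below 0.01 and a natural-log change above 0.25 in size, provided that 10% or more of injured or of control nuclei held a UMI of it. With 1 control library, the spread came from the 3 injured animals. List genes called higher numbered 6 of 29 tested in InN (2.2% of all genes tested were called higher), 4 of 29 in Astro (1.12%) and 3 of 29 in ExN (2.6%). The median log2 change of the list was 0.51 in Astro, 0.21 in Endo, 0.28 in ExN, 0.19 in InN, 1.13 in microglia (1.08 with ISG15 and STAT2, which had no control UMI, at their bounds), 0.69 in OPC and 0.75 in Oligo, beside 0.05, 0.26, 0.00, 0.00, 0.42, 0.17 and 0.02 over all genes. By edgeR no list gene was called higher in Endo (4.19%), Oligo (0.619%), OPC (0.061%) or microglia (0%). Of the 29 list genes tested in each of these types, 12 in Endo, 18 in Oligo, 9 in OPC and 17 in microglia had an unadjusted p below 0.05, as did 33.1%, 30.8%, 19.9% and 21.2% of all genes. DESeq2 called 3, 5, 1 and 4, beside 5.18%, 1.75%, 0.584% and 2.36% of all genes.

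These counts depended on single animals, as did those over all genes, whose shares called in either direction are given in brackets. Without injured 1, the list gave 2 calls in Astro (0.655%), 5 in InN (1.93%) and 0 in Endo (3.88%), ExN (0.517%), microglia (0.0454%), OPC (0%) and Oligo (0.43%). Without injured 2, which had the highest levels, it gave 8 in Astro (5.72%), 8 in Endo (12.5%), 9 in ExN (5.88%), 10 in InN (11.9%), 4 in microglia (2.96%), 9 in OPC (7.15%) and 6 in Oligo (1.63%). Without injured 3 it gave 8 (2.69%), 7 (11.2%), 10 (6.15%), 8 (2.39%), 0 (0%), 8 (2.61%) and 7 (1.41%) in the same order.

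Among the other genes of the relay, ISG15 was at 112, 224 and 62.6 CPM in astrocytes of injured 1, 2 and 3 against 2.31 CPM (2 UMIs) in control. In endothelial nuclei it was at 406, 896 and 251 CPM against no UMI, at least 35.2-fold higher, and this was its highest type in each animal. ISG15 was called higher in ExN (log2 8.56, SE 1.36, adjusted p = 0.00797) and InN (5.53, SE 0.87, adjusted p = 0.00381) by edgeR. It had every injured library above control in 7 of 7 types. UBE2L6 was likewise above control in every injured library in 7 of 7 types but was called in none, with edgeR adjusted p from 0.0111 (Endo) to 0.273. Its endothelial level, 227, 401 and 147 CPM against no UMI, was also its highest in each animal. ISG15 and UBE2L6 were thus highest in endothelial nuclei, which ranked from the third to the fifth of the 7 types for the members in each animal. TRIM25 and ARIH1, a pair of further ligases, were not called in any type, with fitted log2 changes of -0.21 to 2.15 and -0.84 to 1.08.

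HERC1 to HERC4, the members' relatives, were called in none of the 7 types, with fitted log2 changes from -1.71 (HERC2 in microglia) to 2.04 (HERC3 in OPC, SE 0.44, edgeR adjusted p = 0.071). The other E1 enzymes in the list, of ubiquitin and other modifiers, were also without a call. UBA1, the main E1 of ubiquitin, was above control in every injured library in 7 of 7 types, with log2 changes of 0.36 to 2.06 and a lowest edgeR adjusted p of 0.01001, just above the limit. UBA2, UBA3, UBA6, SAE1, NAE1 and ATG7 ranged from -0.70 to 1.33.

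Of 7 genes whose proteins are known to be modified by ISG15, transcripts of 5 were called higher in InN (against 2.2% of all genes tested), 3 in Astro (1.12%), 2 in ExN (2.6%) and 0 in Endo, microglia, OPC and Oligo. Every injured library was nonetheless above control for 7 of them in microglia, OPC and Oligo and for 5 in Endo. Over all genes tested this was so for 49.8%, 41.6%, 33.2% and 48.4%. The 7 genes had median fitted log2 changes of 4.34, 2.66, 2.95 and 2.69 in these types and 4.12 in InN. IFIT1 and IFIT3, interferon-induced antiviral proteins, were called higher in Astro, ExN and InN, MX1, an antiviral GTPase, in Astro and InN, and DDX58 and EIF2AK2 in InN. JAK1 and IRF3 were not called in any type. Of the 7 interferon receptor and signalling genes tested, IRF1 was called higher in Astro (5.15, SE 0.73, edgeR adjusted p = 0.0070). IFNGR2, a chain of the interferon gamma receptor, fell in ExN by 0.96 on the log2 scale (SE 0.14, edgeR adjusted p = 0.00609). It was the single list gene called lower (in ExN 1.25% of all genes tested were, and elsewhere 0.378% in Astro, 1.99% in Endo, 1.22% in InN, 0% in microglia, 0.00871% in OPC and 0.155% in Oligo). IFNAR1, IFNAR2, IFNGR1, TYK2 and STAT2 were not called.

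**Figure D4:**
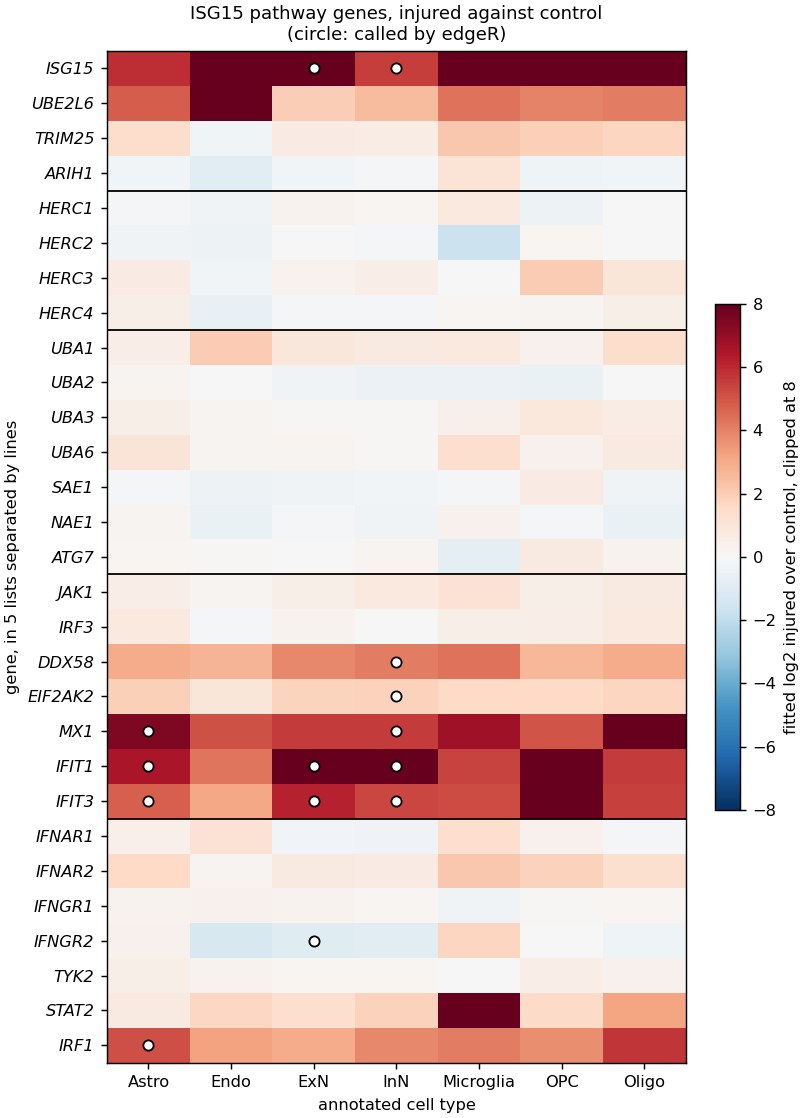
Fitted log2 change, injured over control, of the pathway genes tested (y axis, in 5 lists) in each annotated cell type (x axis), with the colour scale clipped at 8. In 9 squares control had no UMI (ISG15 in Endo, microglia, OPC and Oligo, UBE2L6 in Endo, IFIT1 in InN and OPC, IFIT3 in OPC and STAT2 in microglia), and the fitted value there depends on the prior count and is no bound. White circles mark genes called by edgeR. Circles fall on ISG15, DDX58, EIF2AK2, MX1, IFIT1, IFIT3 and IRF1 as genes called higher and on IFNGR2 in ExN as called lower. None fall on the HERC or E1 genes.

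Within the injured animals, the members were compared between RTN4A+ and RTN4A- astrocytes. The study made this division by the expression of RTN4A, which encodes the neurite outgrowth inhibitor NogoA. The classes rest on UMIs of the gene RTN4, whose counts do not tell its isoforms apart, and their names follow the study. This comparison has no part in the choice of members and needs no control library. UBA7 stood at 35.1, 55.7 and 30.8 CPM in RTN4A+ and 48.1, 80.7 and 40.4 CPM in RTN4A- astrocytes of injured 1, 2 and 3. It was lower in RTN4A+ nuclei in each of the 3 animals, by a log2 difference of -0.49 (95% interval -0.90 to -0.07), but did not pass the threshold (adjusted p = 0.187, edgeR quasi-likelihood test with animal as a block). HERC5 had 69.8, 189 and 43.4 CPM against 65.3, 169 and 44.4 CPM, a log2 difference of 0.08 (-0.25 to 0.40, adjusted p = 0.897 by edgeR). HERC6 had 627, 521 and 506 CPM against 560, 538 and 595 CPM, a log2 difference of -0.07 (-0.27 to 0.12, adjusted p = 0.792 by edgeR). For HERC5 and HERC6 the direction differed between animals, and thinning turned the HERC5 difference to -0.44. Thinning also changed the classes, which were set again on the thinned counts. RTN4A+ nuclei then numbered 185, 395 and 287 in injured 1, 2 and 3, against 337, 675 and 585 at full depth.

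Of 29 pathway genes tested between these classes, IFIT1 (log2 0.55, SE 0.10), IFIT3 (0.48, SE 0.12) and IRF1 (0.79, SE 0.13) were called higher in RTN4A+ astrocytes, in each of the 3 animals, beside 1.95% of all 10170 genes tested. None was called lower (1.55% of all genes), and 10 of the 29 had an unadjusted p below 0.05, against 16.8% of all genes. RTN4A+ nuclei were deeper, with a median of 5389, 3200 and 5026 UMIs in injured 1, 2 and 3 against 4291, 2296 and 3584. Without injured 2, which supplied 675 of the RTN4A+ nuclei, no pathway gene was called, and after thinning 1 was. Calls over all genes, 198 higher and 158 lower in the fit over all 3 animals, changed with these settings too, as the last paragraph gives.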

How the data were processed

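Single nuclei were profiled by droplet snRNAseq, and the authors counted UMIs with Cell Ranger 3.1.0 on calJac3 with an Ensembl annotation adapted to nuclei, at default settings but for the expected number of cells. Doublets were removed with Scrublet in the injured cohort and by a limit of 2500 genes per nucleus in control per the methods, although 1192 of the 8610 deposited control nuclei are above it, and cell types were assigned by cluster with Seurat. The deposited values are UMI counts for each gene in each nucleus, without normalization, along with the library and cell type of each nucleus. Totals per nucleus were checked against the counts, and no nucleus was left out unless stated. Injured replicates were numbered in the order of the records, and each is 1 animal.

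The members and gene lists were chosen with earlier results of these data known. The counts of all nuclei of a type in a library were added up. Genes listed in both tables were compared with edgeR 4.0.16 in R 4.3.3 (TMM, filterByExpr, quasi-likelihood test, Benjamini-Hochberg adjustment), and with DESeq2 1.42.0 as an alternative. Some genes of the pathway list are not reported here and enter none of its counts. The members had no test between cohorts. A fold is the mean injured CPM over the control CPM, with an exact Poisson 95% interval of the control count, or a bound against 3 UMIs where control had none. Shares have exact (Clopper-Pearson) intervals, and the share of nuclei with all 3 members, at 0 in control, a limit of 3 nuclei. Astrocytes were RTN4A+ where RTN4, log-normalized to 10000 UMIs, was above 1. Genes named were the members, the pathway list and, for each member, the 5 genes outside the members most alike by Pearson's r. Fits, thinning and co-detection ratios were tested on simulated data. ISG15 and STAT2 carry only Ensembl identifiers in the tables and were matched through a table of gene names. Other steps were run in Python 3.11.15 (scipy 1.17.1, pandas 2.3.3, numpy 2.4.6). Intervals of folds and shares cover counting error only, those of the RTN4A differences come from the fit over animals, and the median depth of 2117 (control) to 4504.5 UMIs per nucleus limits detection of low genes. An SE given with an edgeR log2 change is the size of that change over the square root of the test's F statistic. The intervals of the RTN4A differences were built from it.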

Additional observations from a re-analysis of the deposited data

How the results depend on the processing

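No paired analysis was possible between the cohorts because the control animals were pooled in 1 library. The members were above control in every injured library in 19 of 21 pairs under thinning and TMM scaling. No share over all genes was computed under these settings. Leaving out an injured animal gave 19 to 21, a count that this step cannot lower. The median log2 fold of 3.21, with 4 pairs at a bound, became 2.24 after thinning, with 5 at a bound that is lower because the thinned control total is smaller. Over the 16 pairs with a control UMI at both depths it went from 3.01 to 2.60. Over all 21 pairs it was 3.16 among nuclei with at most 2500 genes. Of the single folds none reversed under these settings, and thinning moved 2 ratios beyond the spread between animals (HERC5 in microglia and HERC6 in Astro), TMM scaling 1 and the limit of 2500 genes 0. The other 5 values that fell as far under thinning were the UBA7 bounds. The largest ratio, that of UBA7 in ExN, went from 66.3 to 40.0 (11.1 to 330) under thinning, inside the spread between animals. Without injured 2, 5 of 21 folds moved by over 1.5 times, all of HERC5, in Astro, Endo, microglia, OPC and Oligo. Leaving out injured 1 or 3 moved 0 by as much. Calls in the pathway list changed with the settings, and the cause was not tested. DESeq2 gave 8 in ExN, 3 in Endo, 4 in microglia, 1 in OPC and 5 in Oligo, no filter on low counts 3 in Endo and 4 in Oligo, library size alone 2 in ExN, and thinning 3 in Endo, 1 in ExN and 3 in InN. An adjusted p limit of 0.05 gave 10 in Astro, 7 in Endo, 11 in ExN, 11 in InN, 1 in microglia and 8 in Oligo. Calls over all genes moved too, at that limit to 891, 1802, 1834, 1433, 347 and 502, with DESeq2 to 1193 in ExN, 684 in Endo, 318 in microglia, 67 in OPC and 204 in Oligo, with no filter to 998 in Endo and 204 in Oligo, with library size alone to 527 in ExN, and after thinning to 504 in Endo, 91 in ExN and 134 in InN. With library size alone in place of TMM, the median log2 change of all genes fell from 0.42 to 0.17 in microglia, and calls over all genes went from 140 higher and 47 lower to 138 and 101 in Astro, from 553 and 263 to 355 and 264 in Endo, from 393 and 189 to 263 and 264 in ExN and from 285 and 158 to 248 and 273 in InN. Leaving out an injured animal gave 2 to 8 in Astro, 0 to 8 in Endo, 0 to 10 in ExN, 5 to 10 in InN, 0 to 4 in microglia, 0 to 9 in OPC and 0 to 7 in Oligo.

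Between RTN4A classes, no replicate block for the animal gave 0 of 356 calls over all genes and 0 of 3 in the pathway. DESeq2 with the block gave 101 calls, any RTN4 UMI as the class 547, and thinning 59, with 1 in the pathway. Leaving out an animal gave 88 to 402 calls, and 0 to 3 in the pathway. The members were not called under any setting run. HERC5 turned to -0.44 under thinning, where the classes were also set again on the thinned counts. Leaving out an animal gave log2 differences of -0.16 to 0.031 for HERC6 (the latter without injured 3), 0.01 to 0.13 for HERC5 and -0.52 to -0.43 for UBA7, which could not be fitted after thinning. The 129 control microglia, 171 OPC and 181 endothelial nuclei limit the precision of every ratio in those types, as does the spread between the injured animals.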
